A study of Mus musculus with 12 samples.

Results

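The genes described here are 32 genes of cholesterol metabolism, measured by RNA sequencing in mouse thymic epithelial cells (TECs), the stromal cells of the thymus that show antigens to developing T cells. They were chosen by symbol, as a fixed list of genes with known roles, when earlier results of these data were already known. All 32 were found among the 25867 genes with a symbol in the deposited count table, and all 32 were among the 18670 genes with enough counts to be tested. They comprise 19 enzymes of the mevalonate and sterol pathway, 5 genes of the SREBP control system, and 8 genes of sterol transport and of the LXR response.

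The TECs were sorted from cultured thymus lobes of C57BL/6 embryos at E15.5. All 12 cultures were first emptied of thymocytes with 1.35 mM 2'-deoxyguanosine over 4 to 5 days and then received 10 µg/mL of an activating anti-RANK antibody for 3 days. There were 4 groups of 3 cultures. The Kat7 knockout group carried RosaCre-ERT2 and Kat7fl/fl and received tamoxifen, which activates the Cre enzyme and so deletes Kat7, and its reference was a tamoxifen-treated group labelled control, whose alleles the labels do not detail. The WM-3835 group was wild type and received WM-3835, an inhibitor of KAT7 (also named HBO1), and its reference was wild type with the solvent DMSO. The dose and duration of the inhibitor are not given in the labels, and the sample titles spell it WM-3825. The Cre is driven from the Rosa locus, which is active in most cell types, so the deletion is not limited to TECs. KAT7 is an enzyme that acetylates histones.

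Cells make cholesterol from acetyl-CoA through mevalonate, farnesyl diphosphate, squalene and lanosterol. When sterols in the endoplasmic reticulum are low, SCAP carries the SREBP transcription factors to the Golgi, where they are cut and released to switch on the genes of synthesis and uptake. INSIG proteins hold SCAP back when sterols are plentiful, and INSIG1 is itself switched on by SREBP. Oxysterols bind the nuclear receptors LXRα and LXRβ, which switch on genes of sterol export such as Abca1 and Abcg1, and Mylip.

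Levels are CPM, counts divided by the scaled library size, given as mean ± SD of 3 libraries where not given singly. Each change is a log2 fold change, with SE for its standard error. A gene is said to rise or fall where the Benjamini-Hochberg adjusted p of edgeR's quasi-likelihood test over all 18670 genes was under 0.05. The libraries held 26656847 to 52368012 counts. Kat7 stood at 0.606, 0.810 and 0.869 CPM in the knockout libraries, against 76.0 to 89.0 CPM in the control libraries. It stood at 98.5 to 100.4 CPM with WM-3835, against 84.6 to 88.9 CPM with DMSO. Replicates scattered most among the controls, with a biological coefficient of variation of 0.294 in knockout, 0.470 in control, 0.125 in WM-3835 and 0.103 in DMSO libraries. The main fit nevertheless uses the same scatter for all groups of a gene. SE and p values given for the knockout comparison may therefore be too small, and those for WM-3835 too large. Fitted to its 6 libraries alone, the knockout comparison called 1157 genes, against 2646 in the main fit. Xist, an RNA of female cells, stood at 1709, 1191 and 4.94 CPM in knockout libraries 1 to 3, against 2.34 to 3.17 CPM in the controls. It stood at 846 to 2118 CPM in the WM-3835 libraries, against 1382 to 1898 CPM in the DMSO libraries. The knockout comparison therefore differs in Xist as well as in Kat7. The ribosomal RNA transcript Rn45s stood at 6753 CPM in control 1, against 1649 to 2609 CPM in the other 11 libraries.

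Each of the 10 TEC markers was present in all libraries, among them Epcam at 712 CPM in knockout, 696 CPM in control, 773 CPM in WM-3835 and 541 CPM in DMSO libraries. In the knockout, 3 of the 10 fell (H2-Aa, Cd74 and Aire) and none rose, against 8.06% and 6.12% of all tested genes. With WM-3835, 5 fell (Foxn1, Krt5, H2-Aa, Aire and Psmb11) and 1 rose, against 9.35% and 9.34%. The rise was Epcam (log2 0.51, adjusted p = 1.08e-05). The medullary regulator Aire stood at 536 CPM in knockout and 634 CPM in control libraries, and at 556 CPM in WM-3835 and 1199 CPM in DMSO libraries. The cortical gene Psmb11 stood at 501 CPM in knockout and 367 CPM in control libraries, and at 213 CPM in WM-3835 and 511 CPM in DMSO libraries. The summed level of 10 fibroblast markers was 89.1 to 107.8 CPM in knockout and 156 to 219 CPM in control libraries, and 77.3 to 92.8 CPM in WM-3835 and 89.3 to 108.0 CPM in DMSO libraries, with Dpt under 1 CPM throughout. Of these 10, 4 fell in the knockout, and 1 rose and 3 fell with WM-3835, the rise being Pdgfra at 18.5 CPM with WM-3835 and 1.06 CPM with DMSO (log2 4.11, adjusted p = 2.66e-06). The sum of 12 macrophage and dendritic cell markers was 70.7 to 84.2 CPM in knockout and 81.5 to 135 CPM in control libraries, and 51.2 to 57.7 CPM in WM-3835 and 50.8 to 73.3 CPM in DMSO libraries. Of those 12 genes, Fcgr1 and Cx3cr1 stayed under 1 CPM in every library. Lyz2, the most abundant, fell in the knockout, at 30.9 CPM in knockout and 61.2 CPM in control libraries (log2 -0.98, adjusted p = 0.0132). Of the 10 tested genes of this list, 1 rose and 1 fell in each comparison. The rise was Cd68, a lysosomal protein of macrophages, in both. The median log2 value of the 10 was -0.24 in the knockout and 0.06 with WM-3835. Cd68 stood at 14.6 CPM in knockout and 9.22 CPM in control libraries (0.66, adjusted p = 0.014). It stood at 18.6 CPM in WM-3835 and 9.01 CPM in DMSO libraries (1.04, adjusted p = 0.000229). The fall with WM-3835 was Mrc1, at 3.59 CPM in WM-3835 and 7.38 CPM in DMSO libraries (-1.04, adjusted p = 0.0276). Of 10 thymocyte markers, Rag2 was at 0 counts throughout, and another 6, among them Cd3e and Cd8a, stayed under 1 CPM. The others were present, with Lck at 6.71 to 14.2 CPM, Cd4 at 0.779 to 4.01 CPM and Rag1 at 0.11 to 1.11 CPM. The sum of the thymocyte markers was 8.82 to 16.5 CPM over all libraries, and none of the 4 tested was called in either comparison. The sum of 8 endothelial markers was 17.7 to 29.0 CPM in knockout and 24.2 to 45.2 CPM in control libraries, and 8.68 to 10.7 CPM in WM-3835 and 15.2 to 16.8 CPM in DMSO libraries, with Cdh5, Kdr and Emcn under 1 CPM throughout. The sum of 6 adipocyte markers was 219.8 to 254 CPM in knockout and 232 to 249 CPM in control libraries, and 95.9 to 136 CPM in WM-3835 and 219.5 to 234 CPM in DMSO libraries, with Adipoq under 1 CPM throughout. These sums are mostly Lpl and Fabp4, which changed in opposite directions in the knockout. Lpl stood at 198.5 CPM in knockout and 131 CPM in control libraries (log2 0.60, adjusted p = 0.00305), and Fabp4 at 39.0 CPM in knockout and 109 CPM in control libraries (-1.49, adjusted p = 0.00012). Lpl fell with WM-3835, at 98.4 CPM in WM-3835 and 207 CPM in DMSO libraries (-1.07, adjusted p = 6.59e-06). In sorted bulk cells, fewer cells of a type and less RNA per cell cannot be told apart. The part of these marker differences in the results was not tested.

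In the Kat7 knockout, most of the synthesis enzymes that passed the test were lower, and the sterol exporters were higher. Of the 32 members, 6 rose and 7 fell, against 6.12% and 8.06% of all tested genes that rose and fell. The falls were Hmgcs1, Pmvk, Idi1, Fdps, Fdft1 and Cyp51 of synthesis and the sterol carrier Stard4. The rises were the exporters Abca1 and Abcg1, Mylip, the lysosomal exporter Npc1, and the enzymes Ggps1 and Sqle. The median log2 change of the members was -0.11, and that of all tested genes was -0.01. When Xist entered as a covariate, or when knockout 3, whose Xist level was near that of the controls, was the only knockout library, 2 rises (Abca1 and Mylip) and 1 fall (Pmvk) of the 13 were still called. With the covariate, Fdft1 (log2 -0.38), Sqle (0.34), Npc1 (0.37), Stard4 (-0.45), Ggps1 (0.25) and Abcg1 (0.27) missed the threshold at values within 1.5 times those without it, whereas Hmgcs1 (-0.24), Idi1 (-0.16), Fdps (-0.08) and Cyp51 (-0.12) missed it at smaller values. With knockout 3 alone, these last 4 stood at -0.26, -0.20, -0.10 and -0.15. Without knockout 1, or without knockout 2, 4 members fell. Fitted to the 6 libraries of this comparison alone, Hmgcs1, Fdft1, Abca1, Abcg1 and Mylip were still called. Those not called were Stard4 (-0.51, adjusted p = 0.0663), Npc1 (0.33, 0.0781), Pmvk (-0.63, 0.0823) and Sqle (0.29, 0.0915). Idi1 (-0.44, 0.108), Cyp51 (-0.35, 0.114), Fdps (-0.40, 0.133) and Ggps1 (0.29, 0.201) were not called either. In the fit with 1 knockout library, that library is assumed to scatter like the other groups. In the fit with the covariate, the Xist slope rests mostly on knockout 3 against knockout 1 and 2. Both fits thus lean on knockout 3 and are not separate checks.

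With WM-3835, the synthesis enzymes that passed the test and the sterol exporters were all higher. Of the 32 members, 10 rose and 1 fell, against 9.34% of all tested genes that rose and 9.35% that fell. The rises were Acat2, Fdps, Lss, Tm7sf2 and Nsdhl of synthesis, the SREBP feedback gene Insig1, Stard4, Abca1, Abcg1 and Mylip. The fall was Npc2, a lysosomal sterol-binding protein. The median log2 change of the members was 0.13, and that of all tested genes was -0.01. With upper-quartile scaling the calls over all genes were 1382 rises and 2078 falls, against 1744 rises and 1746 falls with TMM scaling.

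Abca1, Abcg1 and Mylip rose in both comparisons, which use separate libraries. Fdps and Stard4 fell in the knockout and rose with WM-3835. Over all tested genes, 1.54% rose in both and 0.819% fell in the knockout and rose with the inhibitor. The difference between the effects, taken as the log2 change in the knockout minus that with WM-3835, passed its own test in 9 members, and all 9 differences were negative. They were Acat2, Hmgcs1, Pmvk, Fdps, Fdft1, Nsdhl, Insig1, Stard4 and Abca1. Over all tested genes, 5.69% had a negative and 4.41% a positive difference that passed. In those same fits, with the Xist covariate or knockout 3 alone, the differences of Acat2, Pmvk, Insig1, Stard4 and Abca1 still passed and the other 4 did not. Of those, Fdft1 (-0.49 with the covariate and -0.47 with knockout 3 alone) and Nsdhl (-0.61 and -0.59) kept about their size, while Hmgcs1 (-0.29 and -0.31) and Fdps (-0.49 and -0.51) were smaller.

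**Figure D1:**
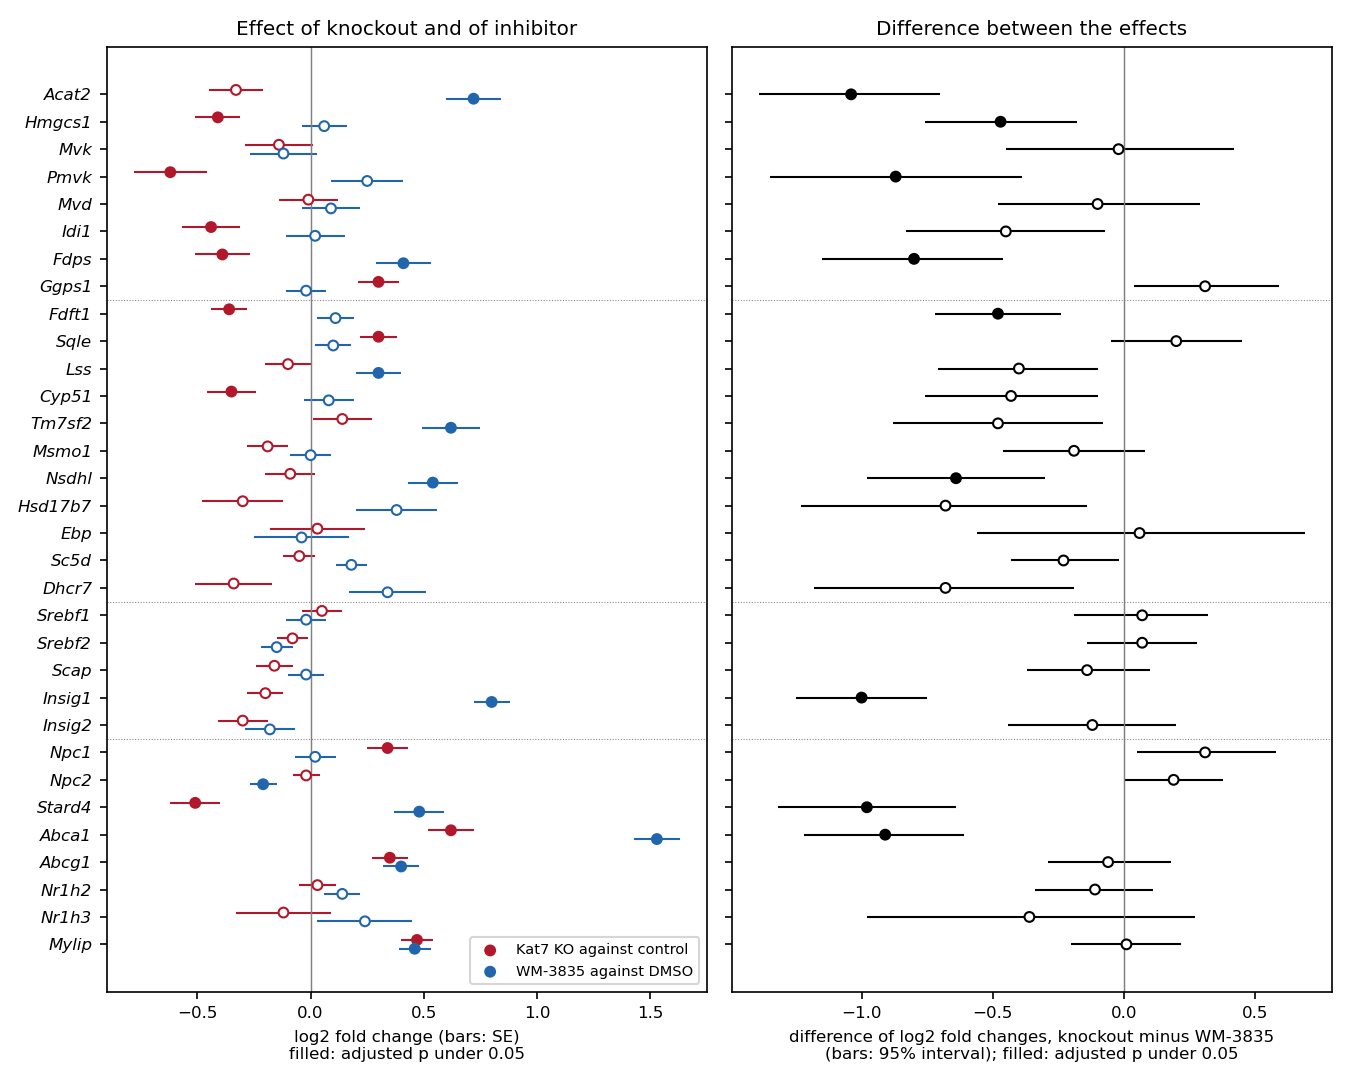
Left, log2 fold changes of the 32 members (points, with SE as bars) in the knockout against control (red) and with WM-3835 against DMSO (blue). Right, the difference between both effects with its 95% interval. Filled points have an adjusted p under 0.05, and dotted lines divide mevalonate enzymes, sterol enzymes, SREBP control genes and transport genes from top to bottom. Most red points of the enzymes lie left of zero and most blue points right of it, while both points of Abca1, Abcg1 and Mylip lie right of zero.

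Sequences before the start site are shown for Abca1 and Mylip, whose calls in the knockout had the smallest adjusted p among the members, and for Insig1 and Hmgcs1, which were added after their values were seen as a strongly raised feedback gene and a synthesis gene. They are RefSeq sequences on GRCm38.p6, 250 bases long for Mylip, Insig1 and Hmgcs1. For Abca1 the 157 bases that lie outside the annotated gene are shown. Capitals mark CCAAT or its reverse complement ATTGG, the E-box CACGTG, and the sterol regulatory element searched as TCACNCCAC.
Abca1 (chr4:53159989-53160145, minus strand): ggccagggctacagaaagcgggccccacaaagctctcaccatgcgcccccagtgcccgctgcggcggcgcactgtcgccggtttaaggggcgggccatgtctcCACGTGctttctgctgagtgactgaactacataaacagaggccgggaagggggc
Mylip (chr13:45389492-45389741, plus strand): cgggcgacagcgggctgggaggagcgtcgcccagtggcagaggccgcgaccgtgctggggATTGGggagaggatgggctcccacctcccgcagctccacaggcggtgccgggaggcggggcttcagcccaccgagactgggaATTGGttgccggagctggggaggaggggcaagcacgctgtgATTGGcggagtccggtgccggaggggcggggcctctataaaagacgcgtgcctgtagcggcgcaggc
Insig1 (chr5:28071162-28071411, plus strand): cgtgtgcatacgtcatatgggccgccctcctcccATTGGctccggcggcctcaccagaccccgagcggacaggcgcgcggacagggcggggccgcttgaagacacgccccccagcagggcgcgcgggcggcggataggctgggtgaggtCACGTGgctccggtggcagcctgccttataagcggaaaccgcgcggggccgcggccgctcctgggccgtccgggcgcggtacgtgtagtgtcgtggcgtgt
Hmgcs1 (chr13:119690101-119690350, plus strand): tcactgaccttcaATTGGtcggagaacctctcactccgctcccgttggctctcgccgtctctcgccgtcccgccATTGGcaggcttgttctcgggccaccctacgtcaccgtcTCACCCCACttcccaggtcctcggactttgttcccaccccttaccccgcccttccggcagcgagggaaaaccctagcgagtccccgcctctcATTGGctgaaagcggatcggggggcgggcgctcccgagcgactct
Fdps, Fdft1, Sqle, Npc1, Stard4 and Abcg1, all called in the knockout, had no RefSeq window and could not be searched. Of the 26 members with a RefSeq window (35 windows, since some genes have several start sites), Hmgcs1 was the one with TCACNCCAC on either strand, where it begins 137 bases before the start. That motif was found in 1.05% of all 32851 windows of the same length, and TCACCCCAC, which is one of its spellings, in 0.496%. CCAAT was found in 22 of the members' 35 windows, against 33.8% of all windows. The Sp1 box GGGCGG was found in 25 of 35, against 32.7%. CACGTG was found in 6 of 35, against 6.02%, and CATGTG in 2 of 35, against 12.3%. The DR4 repeat, to which LXR with its partner RXR binds, searched as AGGTCA, any 4 bases and AGGTCA again, was found in none of the 35 and in 0.0152% of all windows. Both strands were searched, and a match is not a measured binding site.

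Per kilobase of transcript the members spanned a wide range of levels. In RPKM, which is CPM per kilobase of gene length, averaged over all 12 libraries, the most abundant were Srebf1 at 256 RPKM, Npc2 at 216 RPKM and Sqle, the epoxidase that oxidises squalene, at 107 RPKM. Then came Sc5d at 84.9 RPKM, Srebf2 at 84.4 RPKM and Nr1h2 at 84.3 RPKM, whose group means overlap. The least abundant were Nr1h3, which encodes LXRα, at 3.78 RPKM, Hsd17b7 at 5.49 RPKM and Ebp at 6.65 RPKM. The gene of LXRβ, Nr1h2, was thus the more abundant of both receptors in every group, at 76.8 to 88.7 RPKM on average, against 2.83 to 5.01 RPKM for Nr1h3. Of the early and late enzymes, Hmgcs1 stood at 57.3 RPKM and Dhcr7 at 7.72 RPKM.

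**Figure D2:**
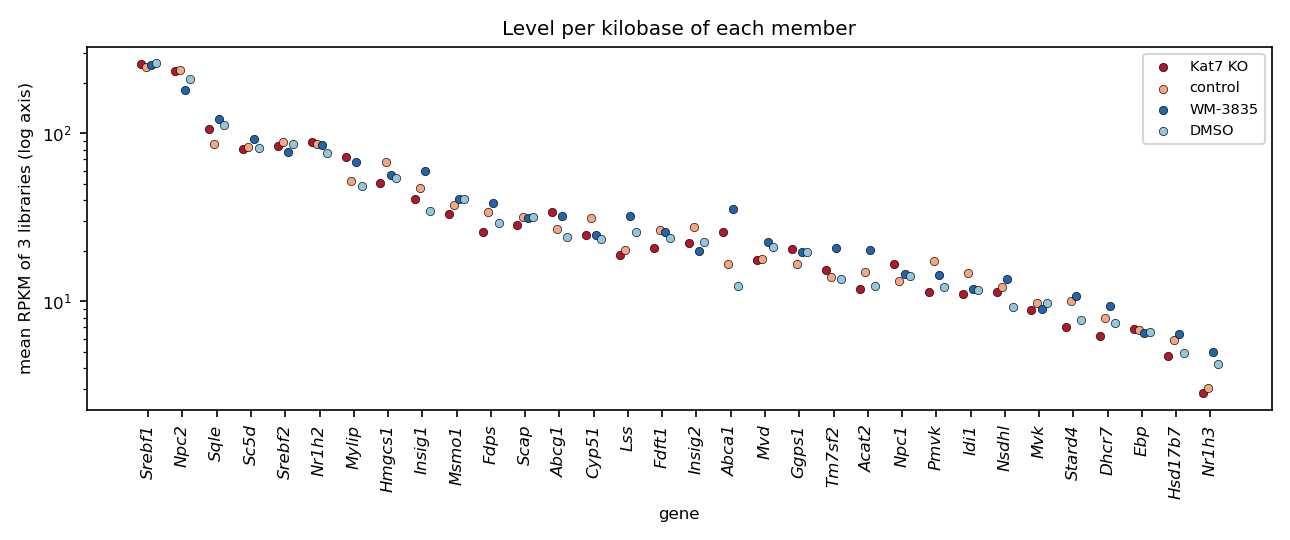
Mean RPKM of each member over the 3 libraries of a group, on a log axis, with genes ordered by their mean over all 12 libraries. Levels run from 256 RPKM for Srebf1 to 3.78 RPKM for Nr1h3, and the groups lie furthest apart for Abca1.

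Among the transport genes, the ABC exporters moved the same way in both comparisons. Abca1, which loads cholesterol onto apolipoprotein A-I (Entrez ID 11303, chromosome 4, 53030789 to 53159988 on mm10), stood at 247, 264 and 279 CPM in the knockout, against 188, 150.0 and 176 CPM in control. It stood at 383, 326 and 385 CPM with WM-3835, against 128.5, 108 and 142 CPM with DMSO. Every treated library lay above every library of its reference, and the 3 WM-3835 libraries were the highest of the 12. The log2 change was 0.62 (adjusted p = 0.000566, SE 0.10) in the knockout and 1.53 (adjusted p = 2.07e-08, SE 0.10) with WM-3835, which is a 2.89-fold rise. The effects differed by -0.91 (adjusted p = 0.000395, SE 0.14). The DMSO level was itself below that of the controls (log2 -0.44, adjusted p = 0.0035).

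Abcg1, which passes cholesterol on to high-density lipoprotein, stood at 218, 187 and 192 CPM in the knockout, against 170.0, 152 and 148 CPM in control. It stood at 182, 180.5 and 198 CPM with WM-3835, against 147, 134 and 142 CPM with DMSO. The groups did not overlap in either comparison. The log2 change was 0.35 (adjusted p = 0.00719, SE 0.08) in the knockout and 0.40 (adjusted p = 0.00128, SE 0.08) with WM-3835. The effects differed by -0.06 with a 95% interval of -0.29 to 0.18 (adjusted p = 0.831).

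Mylip encodes a ubiquitin ligase, induced by LXR, that marks lipoprotein receptors for breakdown (Entrez ID 218203, chromosome 13, 45389742 to 45411940 on mm10). It stood at 216, 213 and 215 CPM in the knockout, against 139.5, 168 and 158 CPM in control. It stood at 203, 198 and 200.2 CPM with WM-3835, against 147, 143 and 146.5 CPM with DMSO. The treated libraries lay above their references in both comparisons and scattered little. The log2 change was 0.47 (adjusted p = 0.000256, SE 0.07) in the knockout and 0.46 (adjusted p = 0.000132, SE 0.07) with WM-3835. The effects differed by 0.01, with a 95% interval of -0.20 to 0.22 (adjusted p = 0.984).

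**Figure D3:**
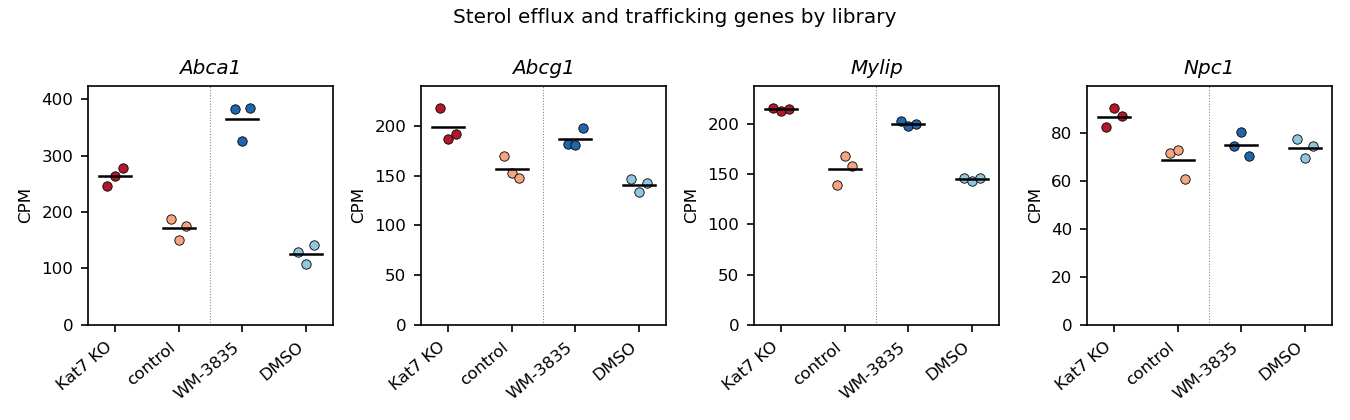
CPM of Abca1, Abcg1, Mylip and Npc1 in each of the 12 libraries (points) with the group mean (line), and a dotted line between the knockout and the inhibitor experiment. Abca1, Abcg1 and Mylip are higher in both treated groups than in their references, whereas for Npc1 only the knockout libraries, at 82.5 to 90.7 CPM, lie apart from their controls, at 60.9 to 73.2 CPM.

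The remaining transport genes did not share that pattern. Npc1, which moves cholesterol out of the lysosome, stood at 82.5, 90.7 and 87.4 CPM in the knockout, against 71.9, 73.2 and 60.9 CPM in control, and rose by 0.34 on the log2 scale (adjusted p = 0.0169, SE 0.09). The call was lost without knockout 2 (0.32, adjusted p = 0.0587) and in the 6 libraries of the comparison alone (0.33, 0.0781). It was also lost with quality weights per group (0.34, adjusted p = 0.0809). The WM-3835 libraries held 74.5, 80.7 and 70.7 CPM, against 77.7, 69.7 and 74.7 CPM with DMSO (log2 0.02, adjusted p = 0.912). Its annotated span overlaps that of Rmc1 over 8982 bases, and the labels do not say to which gene shared reads were given.

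Npc2, which hands sterols to NPC1, stood at 780.0, 752 and 761 CPM in the knockout, against 737, 810.2 and 779 CPM in control (log2 -0.02, adjusted p = 0.868). It stood at 559, 608 and 617 CPM with WM-3835, against 693, 710.2 and 660 CPM with DMSO. That fall of 0.21 on the log2 scale (adjusted p = 0.0287, SE 0.06) separated the groups but was lost without several single libraries. It was -0.20 without DMSO 1 (adjusted p = 0.09), -0.19 without DMSO 2 (0.104), -0.17 without WM-3835 1 (0.155) and -0.23 without WM-3835 2 (0.0506).

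Stard4 encodes a soluble protein that carries cholesterol between membranes and is an SREBP target. It stood at 19.7, 21.8 and 21.9 CPM in the knockout, against 29.2, 28.0 and 32.7 CPM in control. It stood at 32.2, 32.5 and 31.7 CPM with WM-3835, against 22.5, 22.3 and 24.6 CPM with DMSO. The order of the groups was thus opposite in the experiments, with no overlap in either. The log2 change was -0.51 (adjusted p = 0.00655, SE 0.11) in the knockout and 0.48 (adjusted p = 0.00582, SE 0.11) with WM-3835, and the difference was -0.98 (adjusted p = 0.000558, SE 0.16). In the 6 libraries of the knockout comparison alone, the fall did not pass (-0.51, adjusted p = 0.0663). DMSO libraries were lower than control libraries (log2 -0.37, adjusted p = 0.0211). Nr1h2 and Nr1h3 were not called in any comparison. Their log2 changes were 0.03 and -0.12 in the knockout and 0.14 and 0.24 with WM-3835.

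Of the 5 SREBP control genes, Insig1 was the one called in a treated group. It stood at 95, 112 and 118 CPM in the knockout, against 125.5, 125.6 and 123 CPM in control (Entrez ID 231070, chromosome 5, 28071412 to 28078662 on mm10). It stood at 156, 163 and 158 CPM with WM-3835, against 90, 84.4 and 99.8 CPM with DMSO. All WM-3835 libraries lay above the other 9, and all knockout libraries lay below their controls. The rise with WM-3835 was 0.80 on the log2 scale (adjusted p = 2.76e-06, SE 0.08), a 1.74-fold change. The knockout value was -0.20 (adjusted p = 0.119, SE 0.08), which did not pass. The difference was -1.0 (adjusted p = 2.93e-05, SE 0.12), the smallest adjusted p of the 9. Between the reference groups, DMSO libraries held less Insig1 than control libraries (log2 -0.45, adjusted p = 0.000662). The annotated span of Insig1 overlaps that of the noncoding RNA Gm35223 over 7251 bases, and reads of both cannot be told apart.

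The genes of the SREBP factors themselves were not called. Srebf1 stood at 1161, 1058 and 1108 CPM in the knockout, against 1079, 1206 and 933 CPM in control. It stood at 1038, 1236 and 1046 CPM with WM-3835, against 1130, 1112 and 1125 CPM with DMSO. The groups overlapped in both comparisons, with log2 changes of 0.05 (95% interval -0.13 to 0.23) and -0.02 (-0.20 to 0.16). Srebf2, the main regulator of sterol synthesis, stood at 389, 364 and 404 CPM in the knockout, against 398.5, 426 and 397 CPM in control. It stood at 343, 378 and 347 CPM with WM-3835, against 395, 368 and 421 CPM with DMSO. Here too the groups overlapped, with log2 changes of -0.08 (95% interval -0.23 to 0.07) and -0.15 (-0.30 to 0.00). SREBP activity depends on cleavage of the protein, which RNA counts do not measure.

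Scap, the escort of the SREBPs, averaged 122 ± 9.84 CPM in knockout and 136 ± 10.9 CPM in control libraries (log2 -0.16, adjusted p = 0.209), and 134 ± 1.49 CPM with WM-3835 and 136.0 ± 7.15 CPM with DMSO (-0.02, adjusted p = 0.918). Insig2, the second INSIG protein, averaged 56.5 ± 2.84 CPM in knockout and 69.5 ± 12.4 CPM in control libraries. It averaged 50.5 ± 0.804 CPM with WM-3835 and 57.3 ± 4.00 CPM with DMSO. Its log2 values were -0.30 (adjusted p = 0.0734) and -0.18 (adjusted p = 0.29), neither of which passed. The treated libraries lay below their references in both experiments.

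Of the 8 enzymes from acetyl-CoA to farnesyl and geranylgeranyl diphosphate, 4 fell and 1 rose in the knockout, against 8.06% and 6.12% of all tested genes. With WM-3835, 2 of the 8 rose, against 9.34%. The summed level of the 8 enzymes was 343 to 399.8 CPM in knockout and 436 to 491 CPM in control libraries, and 441 to 445 CPM with WM-3835 and 382.5 to 411 CPM with DMSO. The sums did not overlap in either experiment, but Hmgcs1 was the largest single part of them. It averaged 167 of 374 CPM in knockout and 222 of 460 CPM in control libraries. With WM-3835 it averaged 186 of 443 CPM, and with DMSO 178 of 400.5 CPM. Hmgcs1, which makes HMG-CoA (Entrez ID 208715, chromosome 13, 119690351 to 119708260 on mm10), stood at 133, 184 and 184 CPM in the knockout, against 215, 220 and 230.0 CPM in control. Knockout 1 was the lowest of the 12 libraries, and the control libraries lay above those of all other groups. The log2 change in the knockout was -0.41 (adjusted p = 0.0089, SE 0.10), and -0.26 without knockout 1 (adjusted p = 0.0411). With WM-3835 it stood at 189, 186 and 182.5 CPM, against 166, 186 and 183 CPM with DMSO (log2 0.06, adjusted p = 0.754). The difference between effects was -0.47 (adjusted p = 0.0344, SE 0.14), and DMSO was lower than control (-0.31, adjusted p = 0.0235). That difference did not pass without control 2 (-0.46, adjusted p = 0.0514), control 3 (-0.43, 0.0595), knockout 1 (-0.31, 0.073), DMSO 1 (-0.41, 0.107), DMSO 2 (-0.49, 0.0521) or DMSO 3 (-0.47, 0.0704). Nor did it pass without WM-3835 1 (-0.45, adjusted p = 0.0873), WM-3835 2 (-0.46, 0.0686) or WM-3835 3 (-0.47, 0.0673), or with upper-quartile scaling (-0.44, 0.0529).

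Acat2, the thiolase that starts the pathway, rose with the inhibitor. It stood at 24.4, 23.5 and 26.2 CPM in the knockout, against 30.0, 27.3 and 35.7 CPM in control (log2 -0.33, adjusted p = 0.0684, SE 0.12). It stood at 43.3, 40.3 and 42.8 CPM with WM-3835, against 24.9, 26.0 and 26.1 CPM with DMSO, a log2 rise of 0.72 (adjusted p = 0.000215, SE 0.12). The WM-3835 libraries were the highest of all. The effects differed by -1.04 (adjusted p = 0.000368, SE 0.16). Acat3, a close copy of the gene, had 98 to 307 counts per library against 638 to 1935 for Acat2, and how reads shared by both were counted is not stated.

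Fdps, which makes farnesyl diphosphate, moved in opposite directions in the experiments. It stood at 37.4, 30.7 and 46.1 CPM in the knockout, against 49.7, 51.0 and 49.0 CPM in control. It stood at 55.0, 58.5 and 56.1 CPM with WM-3835, against 41.0, 43.0 and 43.4 CPM with DMSO. The groups did not overlap in either experiment, though knockout 3 lay near its controls. The log2 change was -0.39 (adjusted p = 0.0316, SE 0.12) in the knockout and 0.41 (adjusted p = 0.0167, SE 0.12) with WM-3835, and the difference was -0.80 (adjusted p = 0.00325, SE 0.16). The knockout call was lost without control 1 (-0.38, adjusted p = 0.0576), control 2 (-0.36, 0.0676), knockout 1 (-0.37, 0.0931) or knockout 2 (-0.25, 0.155), and the change was -0.10 with knockout 3 as the only knockout library (0.668). The inhibitor call was lost without DMSO 1 (0.39, adjusted p = 0.0721) or WM-3835 2 (0.39, 0.0642).

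Pmvk, which phosphorylates mevalonate phosphate, stood at 19.6, 17.6 and 14.1 CPM in the knockout, against 25.2, 21.2 and 32.5 CPM in control, and fell by 0.62 on the log2 scale (adjusted p = 0.0157, SE 0.16). The call was lost without control 3 (-0.43, adjusted p = 0.0701) or knockout 3 (-0.49, 0.0818), and the value was -0.97 with Xist as covariate (0.04). With WM-3835 it stood at 23.7, 20.2 and 20.9 CPM, against 18.4, 18.2 and 18 CPM with DMSO (0.25, adjusted p = 0.327). The effects differed by -0.87 (adjusted p = 0.0185, SE 0.23). That difference did not pass without knockout 3 (-0.74, adjusted p = 0.054), DMSO 3 (-0.84, 0.0555) or WM-3835 1 (-0.79, 0.066).

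Idi1, the isomerase of isopentenyl diphosphate, stood at 26.3, 31.4 and 36.7 CPM in the knockout, against 43.5, 38.0 and 46.1 CPM in control. All knockout libraries lay below the controls, a log2 change of -0.44 (adjusted p = 0.03, SE 0.13). The call was lost without control 1 (-0.41, adjusted p = 0.0654), control 3 (-0.36, 0.08), knockout 1 (-0.31, 0.143) or knockout 2 (-0.42, 0.0825). The WM-3835 libraries held 30.9, 35.9 and 34.4 CPM, against 31.4, 36.7 and 32.1 CPM with DMSO (log2 0.02, adjusted p = 0.964). Idi2, a related gene, had 41 to 499 counts per library against 853 to 1840 for Idi1.

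Ggps1, which makes the geranylgeranyl diphosphate used to anchor proteins in membranes, was the one enzyme of this branch that rose in the knockout. It stood at 50.9, 46.6 and 47.6 CPM in the knockout, against 40, 36.1 and 42.0 CPM in control (log2 0.30, adjusted p = 0.0404, SE 0.09). The groups did not overlap, yet the call was lost without control 1 (0.32, adjusted p = 0.0507), control 2 (0.25, 0.0952), knockout 1 (0.27, 0.108), knockout 2 (0.33, 0.0533) or knockout 3 (0.32, 0.0637). It was also lost with upper-quartile scaling (0.28, adjusted p = 0.0551). The WM-3835 libraries held 47.5, 44.7 and 47.2 CPM, against 47.3, 45.1 and 48.4 CPM with DMSO (log2 -0.02, adjusted p = 0.949). Mvk and Mvd, the kinase and the decarboxylase of mevalonate, were called in neither comparison, at log2 values of -0.14 and -0.01 in the knockout and -0.12 and 0.09 with WM-3835.

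Of the 11 enzymes from squalene to cholesterol, 2 fell and 1 rose in the knockout, against 8.06% and 6.12% of all tested genes. With WM-3835, 3 of the 11 rose, against 9.34%. The summed level of the 11 enzymes overlapped in the knockout experiment, at 840.1 to 888 CPM in knockout and 846 to 893 CPM in control libraries. It was 989 to 1054 CPM with WM-3835, against 893 to 955 CPM with DMSO. Fdft1, the squalene synthase, stood at 62.2, 56.6 and 59.0 CPM in the knockout, against 74.2, 74.2 and 80.6 CPM in control. It fell without overlap by 0.36 on the log2 scale (adjusted p = 0.00596, SE 0.08). With WM-3835 it stood at 71.2, 76.1 and 75.3 CPM, against 67.8, 65.3 and 72.4 CPM with DMSO (0.11, adjusted p = 0.384), and the difference was -0.48 (adjusted p = 0.0104, SE 0.11). Its annotated span overlaps that of Ctsb over 774 bases.

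Sqle, the next enzyme of the pathway, went the other way in the knockout. It stood at 299, 279 and 298 CPM in the knockout, against 243, 265 and 202 CPM in control. It stood at 316, 335.5 and 347 CPM with WM-3835, against 308, 305 and 318 CPM with DMSO. The controls were the lowest 3 libraries of the 12. The log2 change was 0.30 (adjusted p = 0.0225, SE 0.08) in the knockout and 0.10 (adjusted p = 0.48, SE 0.08) with WM-3835, and DMSO was higher than control by 0.39 (adjusted p = 0.00199). The knockout call was lost without control 3 (0.21, adjusted p = 0.0629), knockout 1 (0.29, 0.0648) or knockout 3 (0.30, 0.0619).

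Cyp51, which removes a methyl group from lanosterol, stood at 92.9, 107 and 122 CPM in the knockout, against 117, 134.5 and 157 CPM in control. These groups overlapped, and the fall of 0.35 on the log2 scale (adjusted p = 0.0444, SE 0.11) was lost without control 2 (-0.34, adjusted p = 0.0723), control 3 (-0.22, 0.186), knockout 1 (-0.24, 0.205) or knockout 2 (-0.33, 0.119). With WM-3835 it stood at 100.8, 113 and 110.5 CPM, against 91.3, 106 and 109 CPM with DMSO (log2 0.08, adjusted p = 0.69).

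With the inhibitor, Tm7sf2, Nsdhl and Lss of this branch rose. Tm7sf2, a sterol reductase, stood at 21.6, 20.4 and 25.9 CPM in the knockout, against 17.5, 23.1 and 21.2 CPM in control (log2 0.14, adjusted p = 0.557). It stood at 29.8, 30.2 and 32.1 CPM with WM-3835, against 21.2, 19.3 and 19.5 CPM with DMSO. The WM-3835 libraries were the highest of the 12, a log2 rise of 0.62 (adjusted p = 0.00284, SE 0.13). Nsdhl, a sterol dehydrogenase, stood at 26.3, 23.4 and 25.6 CPM in the knockout, against 27.3, 25.5 and 27.6 CPM in control (log2 -0.09, adjusted p = 0.644). It stood at 30.5, 31.2 and 27.8 CPM with WM-3835, against 20.5, 19.5 and 21.4 CPM with DMSO, a log2 rise of 0.54 (adjusted p = 0.00218, SE 0.11). The difference was -0.64 (adjusted p = 0.0149, SE 0.16) and did not pass without WM-3835 2 (-0.59, adjusted p = 0.0523). DMSO libraries were lower than control libraries by a log2 value of -0.39 (adjusted p = 0.0177).

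Lss, which closes the rings of lanosterol, stood at 54.9, 56.0 and 64.6 CPM in the knockout, against 59.8, 62.6 and 66.2 CPM in control (log2 -0.10, adjusted p = 0.564). It stood at 91.2, 96.5 and 111.0 CPM with WM-3835, against 83.6, 70.1 and 88.6 CPM with DMSO. The groups did not overlap, but the rise of 0.30 (adjusted p = 0.0477, SE 0.10) was near the threshold. It was lost with RLE factors (0.28, adjusted p = 0.0629) and upper-quartile factors (0.25, 0.102), and without DMSO 1 (0.32, 0.0874), DMSO 2 (0.21, 0.247), WM-3835 2 (0.32, 0.0813) or WM-3835 3 (0.21, 0.257). Msmo1, Hsd17b7, Ebp, Sc5d and Dhcr7, which act between lanosterol and cholesterol, were called in neither comparison. Their log2 values ran from -0.34 for Dhcr7 to 0.03 for Ebp in the knockout, and from -0.04 for Ebp to 0.38 for Hsd17b7 with WM-3835. Hsd17b7 varied most among the controls, at 26.3, 18.4 and 35.6 CPM.

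**Figure D4:**
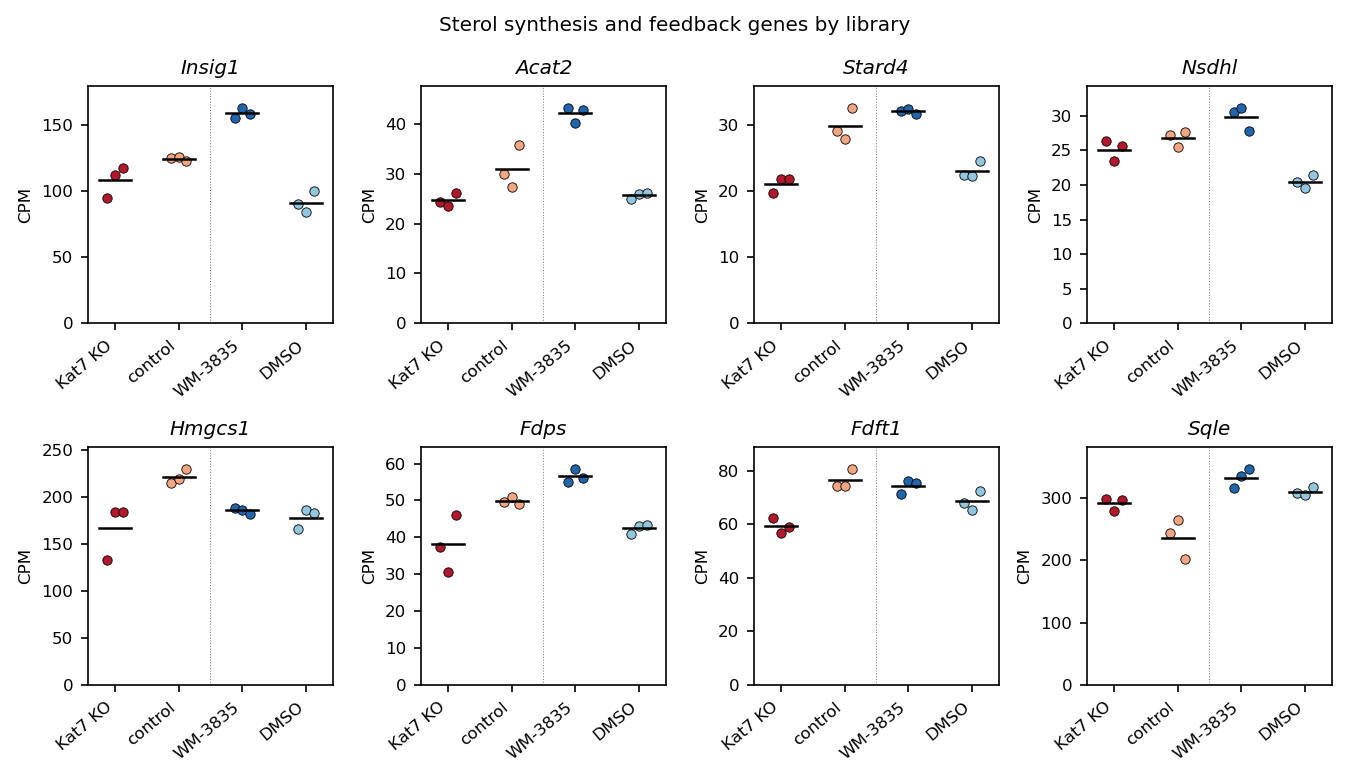
CPM of 8 genes of synthesis and feedback in each library (points) with the group mean (line), the knockout experiment left of the dotted line and the inhibitor experiment right of it. Insig1, Acat2, Stard4 and Nsdhl are highest or among the highest with WM-3835, at 159 ± 3.92 CPM for Insig1 against 91.4 ± 7.82 CPM with DMSO. Hmgcs1 is set apart by its high control libraries, at 215 to 230 CPM, and Fdft1 by its low knockout libraries, at 56.6 to 62.2 CPM.

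The summed level of all 19 enzymes was 1188 to 1288 CPM in knockout and 1299 to 1383 CPM in control libraries, so that the groups did not overlap. It was 1434 to 1494 CPM with WM-3835, against 1276 to 1363 CPM with DMSO, again without overlap. These sums weigh the abundant enzymes Sqle, Sc5d and Hmgcs1 most. In the knockout 15 of the 19 enzymes had a negative log2 value, with a median of -0.19. With WM-3835, 16 of the 19 had a positive one, with a median of 0.11. Of all 18670 tested genes, 9588 had a negative value in the knockout and 9113 a positive one with WM-3835. The median over all tested genes was -0.01 in both.

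The reference groups differed from each other in part of the members. In DMSO against control, where treatment and genotype label both differ, 2 members were higher and 7 lower. Over all tested genes, 11.4% were higher and 13.3% lower. The higher members were Sqle (log2 0.39) and Lss (0.36), and the lower ones were Hmgcs1 (-0.31), Pmvk (-0.53), Cyp51 (-0.42), Nsdhl (-0.39), Insig1 (-0.45), Stard4 (-0.37) and Abca1 (-0.44). For Stard4 the knockout and DMSO libraries thus lay at 19.7 to 24.6 CPM and the control and WM-3835 libraries at 28.0 to 32.7 CPM. The counts were 1 higher without DMSO 3 and 4 higher without control 3, and 2 lower without DMSO 1 and 4 lower without DMSO 2, DMSO 3 or control 3. With Xist as a covariate, no member was called. The Xist level differs widely between these groups, so that fit can hardly separate the groups from Xist, and nothing is concluded from it. This comparison shares its control libraries with the knockout comparison and its DMSO libraries with the inhibitor comparison, so the 3 sets of changes are not independent.

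**Figure D5:**
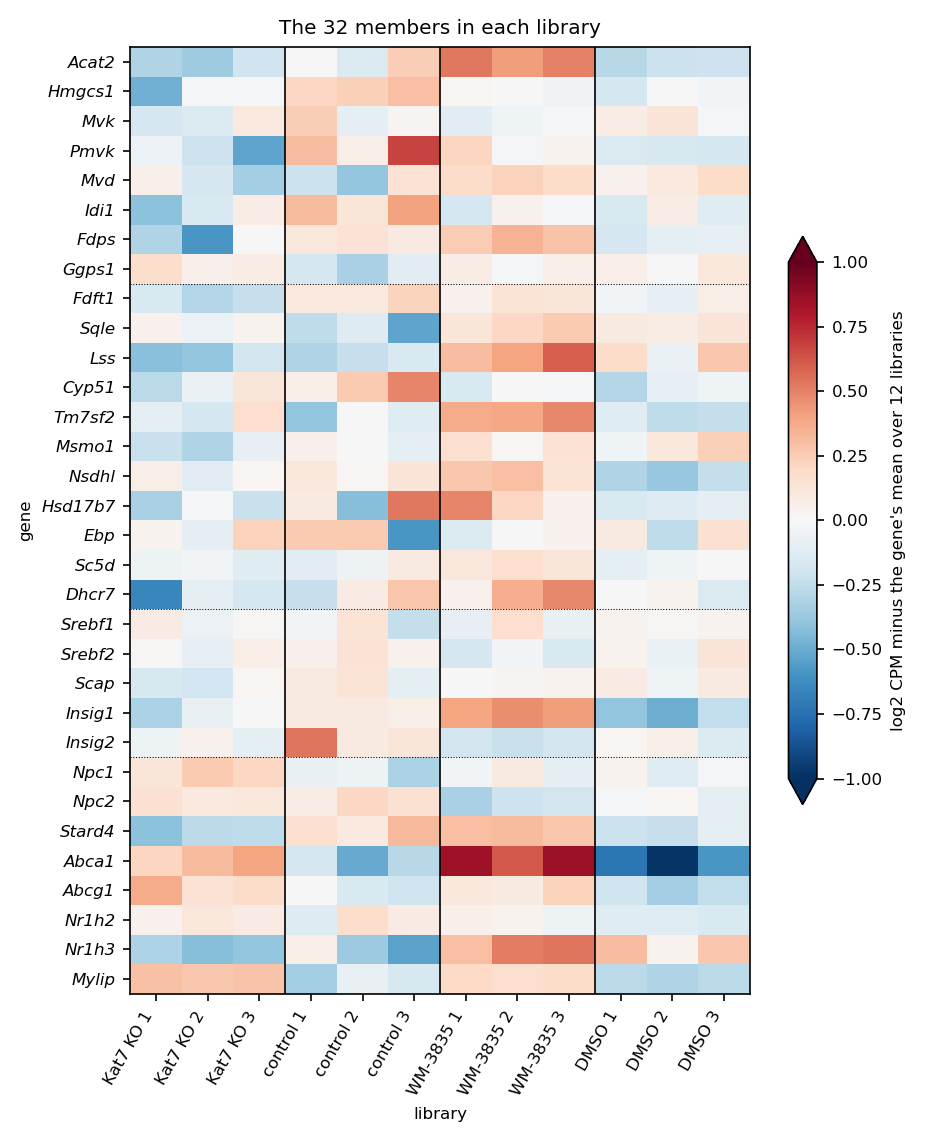
Level of each of the 32 members in each library, as log2 CPM minus the gene's mean over the 12 libraries (red above, blue below, colours capped at 1 in either direction). Abca1 has the deepest red in the WM-3835 libraries and the deepest blue in the DMSO libraries, the rows of Srebf1, Srebf2 and Scap stay pale, and most enzymes are blue in the knockout and red with WM-3835.

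Other genes of lipid metabolism were taken from lists of genes outside the 32. The counts in these lists stand beside shares over all tested genes of 6.12% that rose and 8.06% that fell in the knockout, and 9.34% that rose and 9.35% that fell with WM-3835, with a median of -0.01 in both. Of 34 tested genes of sterol handling, 8 fell and 1 rose in the knockout, and 11 rose and 6 fell with WM-3835. Ch25h, which makes 25-hydroxycholesterol, averaged 23.6 CPM in knockout and 51.5 CPM in control libraries, a log2 change of -1.13 (adjusted p = 0.000293). Gramd1b, which carries cholesterol from the plasma membrane to the endoplasmic reticulum, rose by 0.50 in the knockout (adjusted p = 0.00829). With WM-3835, Cyp7b1, which breaks down oxysterols, averaged 27.4 CPM against 12.6 CPM with DMSO, a log2 rise of 1.12 (adjusted p = 0.00015). Osbpl5, a sterol and lipid transfer protein, rose by 0.65 (adjusted p = 0.000271). Por, which feeds electrons to sterol-oxidising enzymes, rose by 0.50 (adjusted p = 7.95e-05). The median log2 value of this list was -0.01 in the knockout and 0.05 with WM-3835.

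Genes of fatty acid synthesis include many SREBP1 targets. Of 19 tested, 1 rose and 6 fell in the knockout, against 6.12% and 8.06% of all tested genes, and 8 rose and 1 fell with WM-3835, against 9.34% and 9.35%. The list's median log2 value was -0.08 in the knockout and 0.17 with WM-3835, against -0.01 over all tested genes in both. Scd1, a fatty acid desaturase, averaged 99.4 CPM in knockout and 196 CPM in control libraries, a log2 change of -0.98 (adjusted p = 2.71e-06). It averaged 125 CPM with WM-3835 and 75.1 CPM with DMSO, a log2 change of 0.74 (adjusted p = 1.83e-05). Scd2 rose by 0.53 with WM-3835 (adjusted p = 3e-06), Acly, which supplies acetyl-CoA, by 0.59 (adjusted p = 2.2e-05), and the synthase gene Fasn by 0.59 (adjusted p = 0.000125). In the knockout these 3 were not called, at 0.01 for Scd2, -0.08 for Acly and -0.03 for Fasn. Fads1, another desaturase, fell by 0.93 in the knockout (adjusted p = 3.02e-05), Acacb, an acetyl-CoA carboxylase, fell by 1.56 (adjusted p = 0.00341), and Elovl6, an elongase, rose by 0.63 (adjusted p = 0.00465). With WM-3835, Acacb also fell, by 1.41 (adjusted p = 0.00301), and Elovl6 also rose, by 0.68 (adjusted p = 0.00125).

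Of 13 genes that process SREBP or control sterol-dependent protein breakdown, Rnf145 (log2 0.25, adjusted p = 0.0268) and Rnf139 (0.30, adjusted p = 0.0451) rose in the knockout. Rnf145 also rose with WM-3835 (0.27, adjusted p = 0.0133), and Paqr3 fell (-0.60, adjusted p = 0.0427). Of 13 tested genes of the LXR response outside the 32, none rose and 3 fell in the knockout, against 6.12% and 8.06% of all tested genes, and 3 rose and 2 fell with WM-3835, against 9.34% and 9.35%. Plin2, which coats lipid droplets, averaged 12.2 CPM in knockout and 24.8 CPM in control libraries (log2 -1.03, adjusted p = 0.00696), and 25.8 CPM with WM-3835 and 12 CPM with DMSO (1.1, adjusted p = 0.00242). Lpcat3, an LXR target that remodels phospholipids, rose by 0.43 with WM-3835 (adjusted p = 0.000592) and stood at -0.15 in the knockout (adjusted p = 0.212). Arl4c, another LXR target, fell in both, by 0.44 (adjusted p = 0.0075) and 1.28 (adjusted p = 1.4e-07). Pltp, an LXR target that transfers phospholipids between lipoproteins, fell by 0.47 with WM-3835 (adjusted p = 0.000612). Apoc1, an apolipoprotein gene, fell by 1.43 in the knockout (adjusted p = 0.0324).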

How the data were processed

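Raw counts per gene were deposited for 12 libraries, with Entrez ID, symbol and gene length per the file headers. Per the submitters' processing notes, the authors used featureCounts and mm10. Not given in the sources used here are the aligner, the annotation, the strand setting and whether a read or a pair was counted. Per the labels' protocols, libraries came from the TruSeq RNA v2 kit, which does not mark strand, and were read as 75-base pairs, so overlapping and antisense genes cannot be separated. The 1312 of 27179 genes without a symbol (0.657% to 0.743% of a library's counts) were left out.

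The test was that of edgeR 4.0.16 (R 4.3.3): filterByExpr (18670 genes kept), TMM scaling and a quasi-likelihood fit of 4 group means to all 12 libraries. SE is the log2 fold change divided by the root of F. A p adjusted by Benjamini-Hochberg over all genes under 0.05 was called, two-sided. CPM and RPKM use TMM-scaled library sizes and the deposited gene length. The series design calls the cultures biological replicates. Within a group, squared deviations between libraries were 8.27 to 49.3 times those of counting alone, so no library was a copy of another. The fit was also run on simulated counts in which all groups had the same scatter. That run therefore cannot test the p values under the unequal scatter of the real groups.

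The 32 genes and the lists of other genes were chosen with earlier results of these data known. All members are accounted for. Values per library are given for every member called in a main comparison or in the difference of effects and for Hmgcs1, Sqle, Idi1, Srebf1, Srebf2, Insig1 and Abca1. Of each other list, up to 4 called genes with the smallest adjusted p per comparison were taken, and a few that this takes are not reported here. Coordinates were matched by Entrez ID to RefSeq on GRCm38.p6 (mm10). Alternatives were RLE and upper-quartile factors, DESeq2 1.42.0, limma-voom (limma 3.58.1) without and with quality weights per group, no filter on low counts, CPM over 1 in 3 libraries, a replicate block, only the 6 libraries compared, Xist as covariate, knockout 3 as the only knockout library, and leaving out each library of the groups compared.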

Additional observations from a re-analysis of the deposited data

Results flagged for a closer look

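The effects of the knockout and of WM-3835 differed by the test of the difference itself in 9 members (log2 change in the knockout minus that with WM-3835, edgeR). The values were -1.04 for Acat2 (adjusted p = 0.000368), -1.0 for Insig1 (2.93e-05), -0.98 for Stard4 (0.000558), -0.91 for Abca1 (0.000395), -0.87 for Pmvk (0.0185), -0.80 for Fdps (0.00325), -0.64 for Nsdhl (0.0149), -0.48 for Fdft1 (0.0104) and -0.47 for Hmgcs1 (0.0344). For Abca1 both effects were rises, and the rise with WM-3835 was larger. For Acat2, Insig1 and Nsdhl only the rise with WM-3835, and for Pmvk, Fdft1 and Hmgcs1 only the fall in the knockout, passed its own test. Fdps and Stard4 passed in opposite directions. These experiments differ in agent, genotype and tamoxifen, and 6 of the 9 (Hmgcs1, Pmvk, Nsdhl, Insig1, Stard4 and Abca1) had lower levels with DMSO than in control libraries. The part of that gap between the reference groups in the differences was not tested.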

How the results depend on the processing

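No member called in the knockout, the inhibitor or the difference of effects changed sign under any alternative that was run. Of the 13 members called in the knockout, Abca1 and Mylip were called in all 17 alternatives. Of the 11 with WM-3835, 8 were called in all 16. Of the 9 differences, those of Acat2, Insig1, Stard4 and Abca1 passed in all 22. In the knockout, 3 rises and 2 falls were called in the 6 libraries alone (1157 of all genes, against 2646 in 12 libraries), 3 falls with quality weights (1180 genes), 2 rises and 1 fall with Xist as covariate (480 genes), and 2 and 1 with knockout 3 alone (704 genes). With WM-3835, 2 falls were called with quality weights (6589 of all genes, against 3490), and the 6 libraries alone called 6070 genes. Xist as covariate and knockout 3 alone each left 5 differences (695 and 784 of all genes, against 1887). In DMSO against control, 11 members were lower by DESeq2, and Xist as covariate left 0 higher and 0 lower (795 of all genes, against 4600). Leaving out 1 library gave 4 to 5 rises, 4 to 8 falls and 1773 to 2792 genes in the knockout, 8 to 10 rises, 0 to 1 falls and 2393 to 2689 genes with WM-3835, 7 to 11 negative differences and 1346 to 2232 genes, and 1 to 4 higher, 2 to 9 lower and 3257 to 4778 genes in DMSO against control. Deviations of same-numbered libraries correlated at -0.02 to 0.06, so no shared effect of the replicate number was visible. That cannot show whether same-numbered cultures were prepared together. A replicate block gave 6 rises, 7 falls and 2542 genes in the knockout, and 10, 1 and 3505 with WM-3835. It gave 12 negative differences and 2027 genes, and 2 higher, 8 lower and 4559 genes in DMSO against control. The causes were not tested. With RLE or upper-quartile scaling, the median log2 change of all genes was at most 0.06 in size. The least abundant member in counts, Nr1h3, had 151 to 478 counts a library, which limits its precision. In RefSeq, 11 members overlap another gene, whose reads this kit cannot separate by strand.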
